A study of Mus musculus with 4 samples.

Results

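RNA of RAW264.7 cells after 72 h of induction, labelled mature osteoclast, was compared with RNA of the same cells at 0 h, labelled monocyte. RAW264.7 is a mouse macrophage line that can form osteoclasts, and the inducers were RANKL at 100 ng/mL together with M-CSF at 50 ng/mL. Each time was measured on 1 array of a 1-colour Agilent design for long noncoding RNAs (lncRNAs) and mRNAs, so the comparison uses 2 of the 4 arrays of the series, and both lie on slide 1. The other arrays, at 24 h (pre-osteoclast) and 96 h (activated osteoclast), lie on slide 2 and serve here only to show each transcript's signal at all times. A probe entered when the scanner software called its signal well above background at 0 h and at 72 h, here termed detected on both arrays, which held for 34683 of the 60804 probes of the deposited table (57.0%). Values are normalized log2 signals, and a difference is the signal at 72 h minus that at 0 h. No culture was repeated, so no difference has a replicate check or a p-value, and "higher" or "lower" describes these arrays only.

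RANKL binds its receptor RANK on macrophage precursors and, through NF-kappaB and the transcription factor NFATc1, turns on the genes with which osteoclasts fuse, acidify and degrade bone. M-CSF keeps the precursors alive and dividing. LncRNAs are classed by where they lie relative to coding genes: intergenic ones lie apart from them, antisense ones on the opposite strand of an exon or intron, bidirectional ones start beside a coding gene's start and run the other way, and sense-overlapping ones share the strand and part of a gene.

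Names, host genes and classes of lncRNAs came from the study's supplementary lists of lncRNAs called changed, by probe name. These lists were chosen on the same arrays. The list of lncRNAs higher at 72 h was used whole, with 1608 probes, while that of lncRNAs lower at 72 h was used only in part, with 45 probes. Probes of mRNAs are not named here. Directions among named probes therefore follow from the choice of names and are given as a description.

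The label of the 72 h array was set against osteoclast and macrophage genes. Of 10 osteoclast marker genes, Mmp9, the matrix metalloproteinase of osteoclasts, was the one with a named probe, for the transcript ENSMUST00000144917. Its signals were 8.90, 7.42, 6.35 and 8.06 in the order 0, 24, 72 and 96 h, a difference of -2.55. Of 7 monocyte and macrophage markers, Irf8, a transcription factor of the monocyte lineage, was the one with a named probe, and its signal was 9.18, 9.53, 11.05 and 9.27 in the same order, a difference of 1.87. Mmp9 was thus lowest and Irf8 highest on the array labelled mature osteoclast. Both values go against the label, and the array is called the 72 h array below. The Irf8 probe has its name from the study's list of lncRNAs higher at 72 h, so its direction was fixed by that choice. The Mmp9 probe has its name from the list of lncRNAs lower at 24 h. Of the osteoclast genes outside these markers, Snx10 went with the label, at least 5.57-fold higher at 72 h. Slc9b2 and Akr1b3 were lower, with differences of -3.12 and -1.76, and Atp6v0a4 and Ppargc1b were within 2-fold. Snx10 has its name from the list of lncRNAs higher at 72 h, and Slc9b2 and Akr1b3 from that of lncRNAs lower at 72 h. These few noncoding probes do not settle whether the label holds, and the other osteoclast markers are not named here. The Mmp9 and Irf8 probes were designed for noncoding transcripts that share exons with the gene, and whether they also report the mRNA was not tested. The B cell markers Cd79a and Ighm and the T cell markers Cd3e, Cd4 and Cd8a have no named probe under these symbols.

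The 2 arrays were close in overall signal. Before normalization, the median difference was 0.0916, and the 10 spots of Mouse-GAPDH_3 averaged 18.1 ± 0.051 at 0 h and 18.3 ± 0.057 at 72 h (SD over spots). The differences of Mouse-GAPDH_3 and Mouse-GAPDH_5 were 0.164 and 0.130, and those of Mouse-PGK1_3 and Mouse-PGK1_5 were 0.271 and 0.252. Across 15 probes printed 20 times each, the median SD over spots was 0.0693 at 0 h and 0.0678 at 72 h, which gives a difference between 2 single spots an SD of 0.097. This spread covers the printing and scanning of spots and not the spread between cultures. Differences of the 15 probes before normalization ran from -0.669 for CUST_8_PI419532418 to 1.38 for CUST_12_PI419532418. Most of the 15 probes are bright. The dimmest, CUST_5_PI419532418, averaged 6.56 at 0 h and 6.41 at 72 h, with SDs of 0.173 and 0.207. Some other control probes detected on every spot spread more. Rat-PGK1_3 averaged 7.48 at 0 h and 6.53 at 72 h, with SDs of 0.762 and 0.898. ERCC-00062_278 averaged 9.0 and 8.8, with SDs of 0.237 and 0.499. The SD of 0.097 is thus too small for some probes of dim and medium signal.

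Of the probes detected on both arrays, 1327 (3.83%) had a signal higher by 2-fold or more at 72 h and 1618 (4.67%) a signal lower by 2-fold or more. Higher probes were 45.1% of those past 2-fold, against 37.0% under scaling to the 75th percentile of each array and 38.2% under scaling to the median. The median difference was 0.05 and the middle 50% of probes lay between -0.27 and 0.35. Larger differences were few, with 162 probes higher and 204 lower by 4-fold or more, and 46 and 53 past 8-fold. A further 1648 probes were detected only at 72 h and 3224 only at 0 h. Of the 25% of probes with the weakest mean signal, 4.39% were higher and 5.12% lower, and of the brightest 25%, 3.16% and 3.06%. The plot of all differences shows that most of the higher probes, but few of the lower ones, carry a name.

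**Figure D1:**
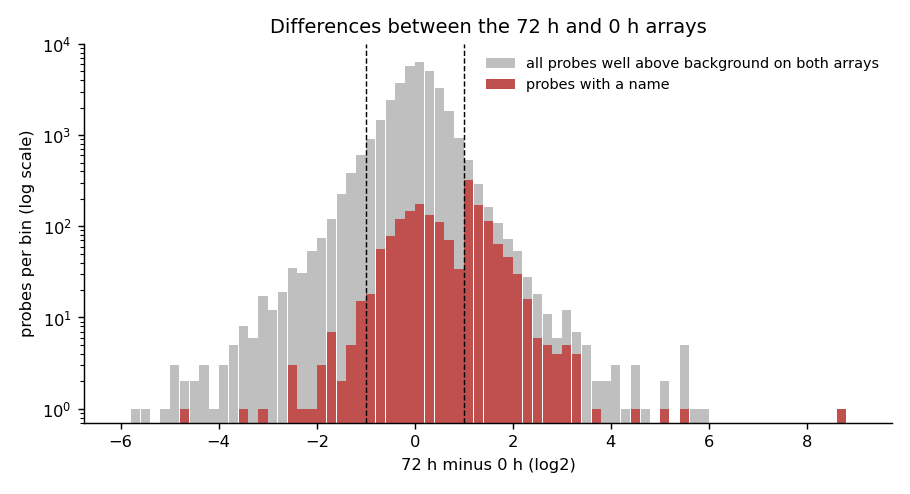
Number of probes (log scale) in bins of 0.2 of the difference 72 h minus 0 h (log2), for all 34683 probes detected on both arrays (grey) and for those with a name (red). Dashed lines mark 2-fold. Of the 1327 probes past the right line 792 have a name, and of the 1618 past the left line 40.

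Some probe classes can be told from the probe's own name, whatever its signal, and these give counts that no list chose. Probes for ultraconserved regions, stretches kept nearly identical between mammals, numbered 923, of which 282 (30.6%) were detected on both arrays. Of these 11 (3.90%) were past 2-fold and higher at 72 h and 14 (4.96%) past 2-fold and lower, near the shares of all probes. Of 649 mouse lincRNA probes (long intergenic noncoding RNAs), 194 passed, and 4 (2.06%) were higher and 22 (11.3%) lower. Of 1104 human lincRNA probes, 304 passed, with 10 (3.29%) higher and 23 (7.57%) lower. Of 83 lincRNA exon probes, 35 passed, with 1 (2.86%) higher and 5 (14.3%) lower. All 3 lincRNA groups thus held more lower than higher probes, while their median differences were 0.029, 0.099 and 0.088, close to the median of all probes. Their median signal, 6.70 to 7.02, was below that of the other probes, 8.28, and its part in the counts was not tested.

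**Figure D2:**
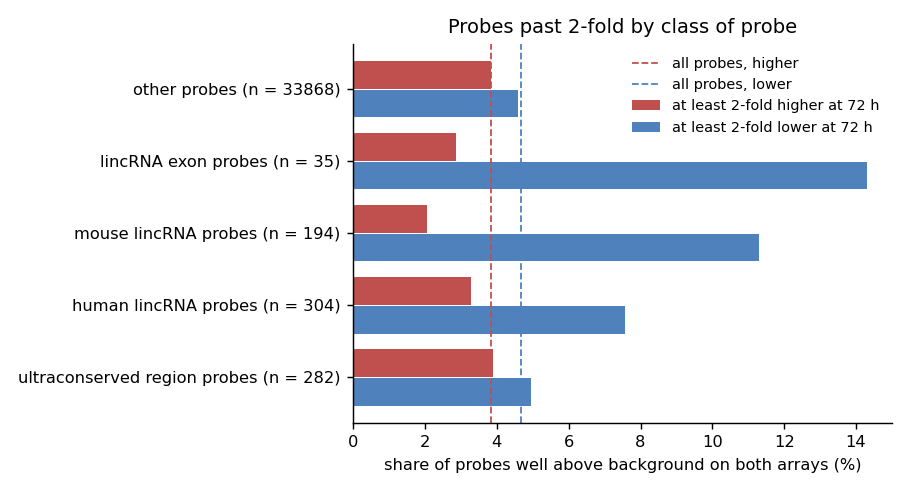
Share (%) of probes detected on both arrays that were past 2-fold and higher (red) or lower (blue) at 72 h, by class of probe, with the number of probes. Dashed lines give the shares of all probes, 3.83% and 4.67%; the 194 mouse lincRNA probes had 2.06% higher and 11.3% lower.

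Of 3937 named probes, 1777 were detected on both arrays, and of these 792 were past 2-fold on the higher side at 72 h and 40 on the lower side. All 792 stand in the study's list of lncRNAs higher at 72 h. Of the 1608 probes of that list, another 626 were detected only at 72 h and 190 on neither array. By class, 299 of 768 intergenic probes that passed were higher and 17 lower. Among natural antisense probes the numbers were 132 higher and 2 lower of 238, and among bidirectional probes 97 higher and 0 lower of 131. Of 510 exon sense-overlapping probes 208 were higher and 15 lower, of 116 intronic antisense probes 48 and 5, and of 38 intron sense-overlapping probes 17 and 1. Median differences ran from 0.419 for intergenic to 1.14 for bidirectional probes, against 0.05 over all probes, and the share of each class that came from the list of higher lncRNAs differed, so the medians are not compared. Of the 973 passing probes named only through the lists for other comparisons, 28 were lower and the median difference was 0.036.

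The largest named difference belonged to LOC100043315 (NR_015482), an intergenic lncRNA at chr15:95097622-95149318 of GRCm38, with signals of 5.91, 5.68, 14.68 and 5.90 in the same order of times. Its spot on the 72 h array was marked as a non-uniform outlier by the scanner software, so this difference of 8.77 rests on a marked spot. Another 2 of the higher named probes carried such a mark at 72 h, those of BC018473, at 1.04, and of an ultraconserved region in an intron of Cntln, at 2.45, which fell short of 2-fold (0.92) under another scaling.

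Large differences also belonged to both named transcripts of the immunoglobulin heavy chain locus, which encodes the antibody heavy chains of B cells. V00821, at chr12:113418559-113421009 within Ighm, had signals of 8.13, 8.75, 13.64 and 4.82 at 0, 24, 72 and 96 h. M13680, at chr12:113420742-113420935 inside the same interval, had 9.67, 10.05, 14.13 and 9.20. Their differences were 5.51 (45.7-fold) and 4.46 (21.9-fold), from separate probes, and both were highest at 72 h. Transcripts of the T cell receptor loci had smaller differences. The 3 probes named TCRA, added after their values were seen, went from 8.79 to 8.47, from 8.74 to 8.61 and from 5.13 to 5.69. Of the 2 named TCRB, one went from 6.14 to 4.91, no longer detected at 72 h, and the other was detected on neither array.

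Among exon sense-overlapping transcripts, the one of Cp (ENSMUST00000150264), the gene of the iron-oxidising plasma protein ceruloplasmin, had signals of 5.61, 6.28, 10.78 and 2.62, a difference of 5.17. The one of Dhrs3, a retinaldehyde reductase, had 6.18, 6.22, 9.47 and 5.69, a difference of 3.30. That of Aldh1l2, a mitochondrial folate enzyme, had 5.09, 5.12, 8.21 and 4.60, a difference of 3.12. Under normexp background correction the differences of Cp, Dhrs3 and Aldh1l2 were 3.85, 2.36 and 1.79. In all 3 the 72 h array was the highest and the 96 h array the lowest.

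Intergenic and antisense lncRNAs with large differences have no known function that could be given here, and their probes are shown to identify them. AK089350, at chr8:66495059-66496946, had signals of 8.06, 5.67, 11.74 and 5.43, a difference of 3.68. AK041809, at chr3:149496147-149498000, had 5.10, 4.95, 8.21 and 5.13, a difference of 3.11. Gm17089, a natural antisense transcript at chr6:134233158-134243711 within Etv6, had 6.04, 6.84, 9.15 and 4.48, also a difference of 3.11. Under normexp those of AK041809 and Gm17089 were 1.80 and 2.15. All 3 were highest at 72 h. The bidirectional lncRNAs AK045688, 60 bases from Tef, and AK044613, 110 bases from Tecpr1, had differences of 2.69 and 2.18. In the probes below, capitals mark AATAAA, the letters of the common polyadenylation signal, which 10.4% of the named probes hold.
AK089350: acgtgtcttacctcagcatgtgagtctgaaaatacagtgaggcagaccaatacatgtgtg
AK041809: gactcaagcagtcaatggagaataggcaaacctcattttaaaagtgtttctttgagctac
Gm17089: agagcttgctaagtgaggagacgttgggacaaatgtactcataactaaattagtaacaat
AK045688: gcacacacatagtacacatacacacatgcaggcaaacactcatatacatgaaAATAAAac
AK044613: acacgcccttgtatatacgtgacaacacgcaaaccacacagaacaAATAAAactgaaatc

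A further 4 named probes complete the 12 largest differences. AK163331, on an unplaced contig, had signals of 4.96, 5.16, 8.27 and 5.07, a difference of 3.31. AK009210, at chr14:50888590-50890567 over Klhl33, had 7.57, 8.09, 10.81 and 7.23, a difference of 3.25. A130023I24Rik, at chr7:134227474-134230705, had 5.69, 5.42, 8.85 and 5.53, a difference of 3.16. Under normexp AK163331 and A130023I24Rik had 1.77 and 2.06. Each of these was highest at 72 h and close to its 0 h signal at 96 h. The ribosomal protein pseudogene Rps25-ps1 had 10.17, 13.86, 13.38 and 13.81, a difference of 3.20, and so was high at every later time, not at 72 h alone.

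Further large differences within the classes were as follows. Among intronic antisense transcripts, Gm16026, described below, had the largest difference, 2.89. AK040178, within Opcml, followed with signals of 5.01, 5.60, 7.51 and 4.35, a difference of 2.50. XLOC_012490, within the imprinted Gnas locus, had 11.41, 13.26, 13.51 and 12.72, a difference of 2.11, and was high from 24 h on. Among natural antisense transcripts, AK016327, within Dld, the gene of a mitochondrial dehydrogenase subunit, had 5.55, 4.42, 7.81 and 5.69, a difference of 2.26. Under normexp AK040178 and AK016327 had 1.35 and 1.24. At the other end, AK053163, antisense to Psd, had 14.68, 13.99, 13.00 and 15.89, a difference of -1.67, and AK148560, antisense within Shcbp1l, 9.75, 9.41, 8.38 and 10.90, a difference of -1.37. Both of these had their highest signal at 96 h. The lowest bidirectional probes, 2210008F06Rik, 2610016A17Rik and AK015639, had differences of -0.77, -0.70 and -0.67 and so lay within 2-fold.

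On the lower side, AK207499, a short transcript at chr8:64592543-64592716 within Cpe, the gene of carboxypeptidase E, had signals of 15.62, 12.67, 10.91 and 16.95, a difference of -4.70 (26.1-fold lower). Its probe is listed as cross-hybridising with the Cpe mRNA, so the transcripts cannot be told apart. AK137448, an intron sense-overlapping transcript at chr7:3860681-3869152, had 9.17, 3.26, 5.62 and 7.74, a difference of -3.54. Its lowest signal was at 24 h. Gm14074, an intergenic transcript at chr2:135648907-135652063 that overlaps Platr3 in RefSeq, had 8.73, 8.38, 6.14 and 10.17, a difference of -2.58. Under normexp AK137448 and Gm14074 had -2.35 and -1.68.

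Of the intergenic lncRNAs that were lower, AK027975, at chr12:85432760-85433580 and 40310 bases from Fos, had signals of 8.23, 6.09, 5.64 and 9.97, a difference of -2.60. AK044014, at chr9:120675536-120676271, had 7.57, 5.45, 5.19 and 9.40, a difference of -2.38. Under normexp AK027975 and AK044014 had -1.62 and -1.31. Both were lower at 24 h as well and were higher than at 0 h by 96 h. AK145143, AK079356, Adra1a, Morf4l2 and Lpcat1 complete the 12 lowest, with differences from -2.06 to -1.77. The probes of the intergenic pair are shown with AATAAA in capitals.
AK027975: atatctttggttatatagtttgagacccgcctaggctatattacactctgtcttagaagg
AK044014: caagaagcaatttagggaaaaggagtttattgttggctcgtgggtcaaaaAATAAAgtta

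**Figure D3:**
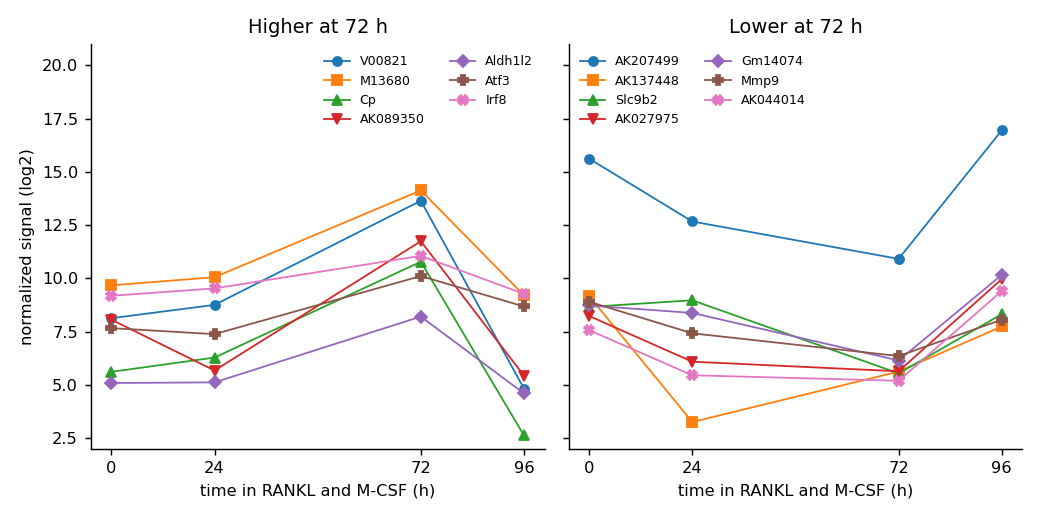
Normalized signal (log2) against time in RANKL and M-CSF (h) on 4 arrays, 1 per time, for 7 transcripts higher at 72 h (left) and 7 lower (right); lines only join the points of a transcript. The higher ones peak at 72 h, as V00821 does at 13.64, and the lower ones return at 96 h, as Mmp9 does from 6.35 to 8.06.

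Few of the osteoclast genes had a named probe, 6 of 37. The transcript of Slc9b2, a sodium/proton exchanger linked to osteoclast formation, had signals of 8.66, 8.97, 5.54 and 8.32, a difference of -3.12 (8.69-fold lower), which was -1.94 under normexp. That of Akr1b3, aldose reductase, had 12.06, 12.69, 10.30 and 9.38, a difference of -1.76. With Mmp9 these were the 3 probes of the list past 2-fold, all of them lower. Over all probes 4.67% were lower by 2-fold or more, and among named ones 40 of 1777. The differences of all 3 stayed past 2-fold under every scaling tried. Atp6v0a4, a subunit of the proton pump family, was at 7.24 and 7.30 at 0 and 72 h, and Ppargc1b, a coactivator of mitochondrial biogenesis, at 7.26 and 7.99. Snx10, a sorting nexin needed for bone resorption by osteoclasts, was not detected at 0 h and had 7.40 at 72 h, at least 5.57-fold higher. The median of the 5 probes that passed was -1.76, against 0.05 over all probes. Of the 6 probes, Slc9b2 and Akr1b3 came from the list of lncRNAs lower at 72 h, used in part, so their direction was fixed by that choice. Another 1 came from the list of higher ones, and 3 from lists of other comparisons.

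Of 34 monocyte and macrophage genes, 24 had a named probe, and 13 of these were detected on both arrays. All 13 were past 2-fold and higher at 72 h, against 3.83% of all probes and 792 of 1777 named ones, and 9 of them stayed so under every scaling. Their median difference was 1.60. Of the 24 probes, 23 stand in the list of lncRNAs higher at 72 h, among them all 13. The direction of the 13 was thus fixed by that choice. Irf8 had the largest difference, 1.87. The transcript of Cd200r1, an inhibitory receptor of myeloid cells, had signals of 6.98, 7.21, 8.78 and 7.69. That of Ms4a6d, a tetraspan membrane protein of macrophages, had 9.23, 9.87, 11.02 and 10.06, and that of Gp49a, now Lilr4b, an immunoglobulin-like receptor, 9.82, 9.37, 11.55 and 10.98. Their differences were 1.80, 1.79 and 1.73, and each was highest at 72 h. A further 8 probes were detected only at 72 h, among them those of Cd86, a T cell costimulator, at 7.59 (at least 6.92-fold higher), Aoah, a lipopolysaccharide-degrading lipase, at 7.46 (at least 6.31-fold) and Spn, leukosialin, at 6.93 (at least 4.37-fold). The differences of Clec12a, Ms4a6b, Asgr2 and Lair1, at 1.02, 1.07, 1.14 and 1.20, fell short of 2-fold under another scaling. In RNA of whole cultures, more cells of a type and more RNA per cell cannot be told apart.

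Genes of the response to amino acid lack and unfolded protein form the next group. Under such stress the kinase-phosphorylated factor eIF2 slows translation while the factor ATF4 raises genes for amino acid import, synthesis and tRNA charging, and chaperone and feedback genes follow. Of 55 such genes 24 had a named probe, 17 of which passed. Of these 15 were past 2-fold on the higher side, 0 on the lower side and 2 within 2-fold, against 3.83% of all probes and 792 of 1777 named ones on the higher side, and 11 stayed past it under every scaling. The median was 1.54, against 0.05 over all probes and 0.62 over named ones, and 21 of the 24 stand in the list of lncRNAs higher at 72 h.

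Among its regulators, the transcript of Atf3, a stress-induced repressor, had signals of 7.66, 7.38, 10.11 and 8.68, a difference of 2.44. That of Ppp1r15a, which reverses the eIF2 phosphorylation, had 10.05, 10.56, 11.87 and 9.64, a difference of 1.82. Trib3, a pseudokinase target of ATF4, was not detected at 0 h, with 2.62, and had 2.66, 7.89 and 2.66 at the later times, at least 8.47-fold higher at 72 h. Nupr1, a small stress-induced nuclear protein, had 2.65 at 0 h, not detected, then 8.94, 9.67 and 4.97, at least 29.1-fold higher at 72 h. Trib3 was thus high at 72 h alone, and Nupr1 already at 24 h. The 2 bounds were not recomputed under another scaling.

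Among the transporters, the transcript of Slc7a11, the cystine importer, had signals of 5.87, 5.71, 8.01 and 5.44, a difference of 2.14, which was 1.31 under normexp. That of its partner chain Slc3a2 had 10.28, 9.89, 12.10 and 10.60, a difference of 1.82, and Slc7a5 and Slc6a9, importers of large neutral amino acids and of glycine, had differences of 1.53 and 1.43. Slc7a11 and Slc3a2 were highest at 72 h. Among enzymes, the tRNA synthetase transcripts of Cars, Mars and Yars had differences of 1.54, 1.30 and 1.04. Mthfd2, a mitochondrial folate enzyme, had 0.99, and Cbs, cystathionine beta-synthase, 0.14. Herpud1 and Ern1, of the endoplasmic reticulum branch, had 1.56 and 1.15, and Stc2, a secreted glycoprotein raised by that branch, 1.96. Eif2s2, a subunit of eIF2, had 1.13, and Soat2, which esterifies cholesterol, 2.18. The differences of Slc7a5, Herpud1, Yars and Eif2s2 fell short of 2-fold under another scaling.

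The windows of 250 bases before the gene starts (RefSeq, GRCm38.p6) were searched for TGATGNAA on both strands, a form of the composite element that ATF4 and C/EBP factors bind. Of the 24 genes, 17 matched a promoter entry by symbol, and 4 of these (23.5%) held the letters, Atf3, Herpud1, Nupr1 and Slc7a11, against 3.91% of 27025 genes. The genes were listed for this response, so a share above that of all genes can follow from the list alone. It does not bear on the 72 h array. The match is of letters, and the noncoding transcripts may start elsewhere than the gene. The 4 windows are shown, with the matches in capitals, because their genes include Nupr1, Atf3 and Slc7a11 above. They lie at chr1:191183334-191183583 (minus strand), chr8:94386179-94386428 (plus), chr7:126625471-126625720 (minus) and chr3:50443614-50443863 (minus).
Atf3: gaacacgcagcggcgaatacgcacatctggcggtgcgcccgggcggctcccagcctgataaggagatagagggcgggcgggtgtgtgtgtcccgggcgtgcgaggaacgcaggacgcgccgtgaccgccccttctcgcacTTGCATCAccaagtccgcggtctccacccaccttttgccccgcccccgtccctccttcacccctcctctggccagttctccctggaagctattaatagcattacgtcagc
Herpud1: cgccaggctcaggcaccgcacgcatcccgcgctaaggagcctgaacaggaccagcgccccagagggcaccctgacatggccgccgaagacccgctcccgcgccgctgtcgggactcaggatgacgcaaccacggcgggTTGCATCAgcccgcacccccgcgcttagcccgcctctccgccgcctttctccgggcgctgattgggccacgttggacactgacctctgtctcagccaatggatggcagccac
Nupr1: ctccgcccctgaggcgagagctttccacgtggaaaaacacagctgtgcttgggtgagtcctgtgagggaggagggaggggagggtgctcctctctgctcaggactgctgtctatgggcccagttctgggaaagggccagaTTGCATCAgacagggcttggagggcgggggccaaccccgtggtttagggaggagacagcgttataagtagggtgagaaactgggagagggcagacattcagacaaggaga
Slc7a11: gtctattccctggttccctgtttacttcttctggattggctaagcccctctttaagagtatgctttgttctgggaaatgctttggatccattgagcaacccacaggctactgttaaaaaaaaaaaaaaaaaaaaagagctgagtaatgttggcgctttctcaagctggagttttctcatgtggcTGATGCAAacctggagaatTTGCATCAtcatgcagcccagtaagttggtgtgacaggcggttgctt

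Interferon-response genes, which cells raise against viruses, had named probes for 14 of 26. Of the 11 that passed, 10 were past 2-fold and higher, against 3.83% of all probes and 792 of 1777 named ones, and 0 past 2-fold and lower. Under every scaling 7 stayed past it. The median was 1.40, and 13 of the 14 probes stand in the list of lncRNAs higher at 72 h. The transcript of Ifi44 had signals of 13.80, 14.62, 15.19 and 10.87, a difference of 1.40, and that of Oas1g, a sensor enzyme of double-stranded RNA, 7.20, 8.04, 8.75 and 4.61, a difference of 1.55. Mnda and Ifi203, of a family of DNA-binding interferon-inducible proteins, had differences of 1.49 and 1.22, and H2-T23, a nonclassical MHC molecule, 1.34. In Ifi44, Oas1g, Mnda, Ifi203 and H2-T23 the 96 h signal was below that at 0 h. Oasl1, at 7.37 and 7.83 at 0 and 72 h, was within 2-fold. H2-Ob, Trafd1 and Sp110, at 1.66, 1.74 and 1.12, fell short of 2-fold under another scaling. Irf8 and Mnda stand in this list and in that of macrophage genes.

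GAAA and GAAA with any 2 bases between them form the core of the element that interferon-activated factors bind. They were in the 250 bases before the start of 6 of the 13 of these genes with a promoter entry (46.2%), on either strand, against 3.46% of all genes. Here too the excess can follow from the list alone and does not bear on the 72 h array. Of the 6, Parp4 and Rbm43 were detected on neither array. Oas1g, at chr5:120887614-120887863 (minus strand), is shown as the example whose transcript passed on both arrays and which holds overlapping matches.
Oas1g: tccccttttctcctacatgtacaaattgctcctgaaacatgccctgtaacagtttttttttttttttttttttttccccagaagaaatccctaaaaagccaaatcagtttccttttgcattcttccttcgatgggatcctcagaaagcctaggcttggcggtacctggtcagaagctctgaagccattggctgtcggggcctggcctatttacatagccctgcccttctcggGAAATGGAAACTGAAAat

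Inflammatory genes and genes of the NF-kappaB pathway had named probes for 17 of 32. Of the 11 that passed, 9 were past 2-fold and higher, against 3.83% of all probes and 792 of 1777 named ones, and 0 past 2-fold and lower. Under every scaling 5 stayed past it, without Card9, Traf3ip2, Il10ra and Map3k8. The median was 1.40, and 13 of the 17 stand in the list of lncRNAs higher at 72 h. Map3k8, the kinase that couples toll-like receptors to ERK, had signals of 5.25, 5.77, 7.34 and 5.16, a difference of 2.09, which was 0.99 under another scaling. The transcript of the chemokine gene Ccl4 had 12.48, 13.10, 14.04 and 12.71, a difference of 1.56. IkappaB-zeta, the inducible cofactor encoded by Nfkbiz, had 8.58, 9.47, 9.97 and 5.86, a difference of 1.39. Il2ra was at 7.90 and 7.45 at 0 and 72 h and Il1rap at 6.03 and 6.26, both within 2-fold. Lcn2, a siderophore-binding protein of neutrophils and activated macrophages, was not detected at 0 h and had 7.33 at 72 h, against 2.60 and 2.80 at 24 and 96 h, at least 5.75-fold higher.

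Iron-handling genes had 6 named probes, of which 4 passed, and 5 of the 6 stand in the list of lncRNAs higher at 72 h. Besides Cp, the transcripts of Slc25a37, the mitochondrial iron importer, and Fth1, the ferritin heavy chain, had differences of 1.42 and 1.02. That of Ftl1, the ferritin light chain, named through the list of lncRNAs lower at 24 h, had signals of 15.46, 13.29, 14.37 and 14.34, a difference of -1.10. The differences of Slc25a37, Fth1 and Ftl1 fell short of 2-fold under another scaling. Leukocyte signalling and cytoskeleton genes, all 25 of them written from the named probes, had 15 probes that passed. Of these 14 were higher, against 3.83% of all probes and 792 of 1777 named ones, and 1 was lower. Of the 25 probes 22 stand in the list of lncRNAs higher at 72 h, so their direction was fixed by that choice. Of the 14, Stk38, Vasp and Arrb2 fell short of 2-fold under another scaling. Stap1, an adaptor of immune receptors, had 5.48, 6.26, 8.35 and 4.99, and Gmfg, a regulator of actin branching in leukocytes, 6.71, 6.22, 8.76 and 5.82, differences of 2.87 and 2.05, and Stap1 had 1.75 under normexp. The lower one was Vim, vimentin, with 8.80, 8.17, 7.63 and 10.20, a difference of -1.17, which was -0.86 under another scaling.

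**Figure D4:**
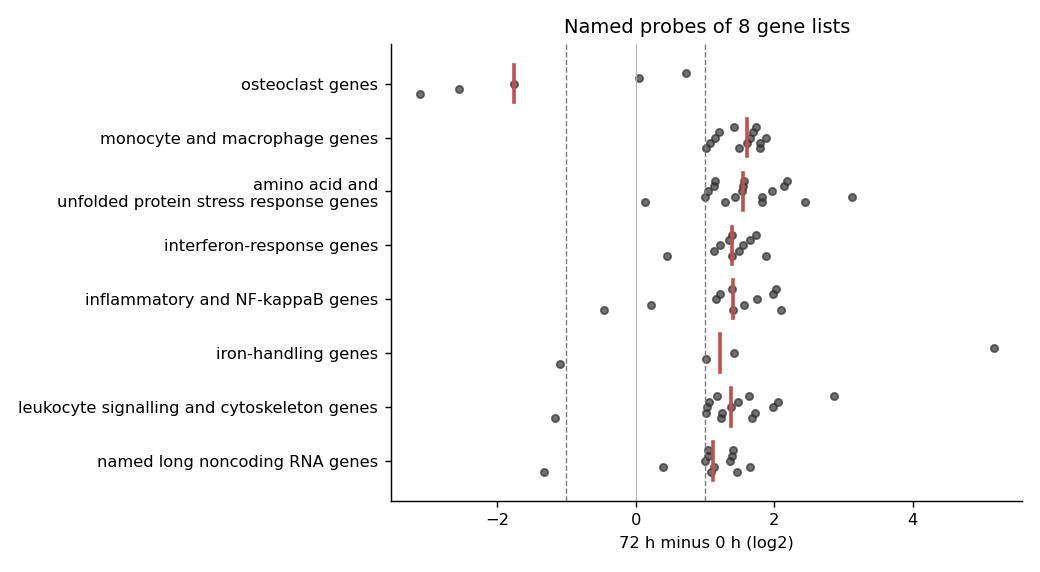
Difference 72 h minus 0 h (log2) of each named probe detected on both arrays, by gene list; the vertical offset only separates points, red bars are medians and dashed lines mark 2-fold. The osteoclast genes have the one median below 0, at -1.76, and the medians of the other 7 lists drawn lie between 1.11 and 1.60. Most probes of those 7 lists, but no osteoclast probe drawn, stand in the study's list of lncRNAs higher at 72 h. The medians therefore follow from the choice of names and are not compared. The 2 passing probes of the B and T cell receptor loci, at 4.46 and 5.51, are not drawn.

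Among named lncRNA genes, 18 of 34 had a probe. Of their 22 probes, 17 stand in the list of lncRNAs higher at 72 h. Of 12 passing probes 10 were past 2-fold and higher, against 3.83% of all probes and 792 of 1777 named ones, and 1 past it and lower. Under every scaling 4 of the 10 stayed past it, without Mtag2, Hoxa11os, Tug1, Nespos and both probes of Atad3aos. Snhg1, a host of small nucleolar RNAs 118 bases from Slc3a2, had signals of 13.76, 14.17, 14.81 and 14.00, a difference of 1.05, and Snhg12, another such host, a difference of 1.40. Dleu2, the host of the microRNAs Mir15a and Mir16-1, had 10.60, 11.26, 11.99 and 12.61, a difference of 1.39, and was still higher at 96 h. Tug1 had a difference of 1.09 (0.69 under another scaling), and Stamos, 28 bases from Stam, 1.45. Airn, the imprinted antisense transcript of Igf2r, had 10.88, 9.84, 9.56 and 12.27, a difference of -1.32. Bach2os, a named antisense transcript of Bach2, was not detected at 0 h, and had 4.17, 3.33, 8.21 and 4.64, at least 10.6-fold higher at 72 h.

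Where a gene had several named probes, they could be set against each other. Of 20 such genes with probes passing on both arrays, 16 had all probes of the same sign, and the median range between probes of a gene was 0.63. In 4 of these genes a pair of probes shares 20 or more bases, and among the other 16 genes 13 had one sign and the median range was 0.78. The 2 probes of A230072E10Rik had -0.73 and 1.21 and those of 4930417H01Rik -0.39 and 1.34, so that no single value stands for these genes.

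Some named probes share sequence and are not separate measurements, such as the 3 of D430036J16Rik, at 1.17 to 1.42, which have 51 to 55 bases in common. Of the pairs of named probes with 20 or more bases in common there were 39, and in the 20 pairs in which both probes passed, the differences lay a median of 0.12 apart. The 5 probes of AB346779, AB346797, AB346804 and AB346813 hold the same 22 bases, in capitals, shifted along the probe. They are assigned to chromosome 1, chromosome 5 and unplaced contigs of chromosome 1, and their differences were close, from 2.15 to 2.32. They are shown because they read as separate lncRNAs in the lists.
AB346779: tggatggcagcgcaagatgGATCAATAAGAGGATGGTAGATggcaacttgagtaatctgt
AB346797: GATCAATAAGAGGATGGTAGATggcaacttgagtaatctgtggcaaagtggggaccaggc
AB346804 (contig): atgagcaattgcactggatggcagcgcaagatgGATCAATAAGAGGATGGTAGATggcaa
AB346804 (chromosome 5): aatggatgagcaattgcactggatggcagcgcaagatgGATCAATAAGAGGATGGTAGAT
AB346813: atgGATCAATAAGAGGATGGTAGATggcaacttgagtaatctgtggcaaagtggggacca

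The 4 probes named BC038927 are likewise listed as cross-hybridising with one another's transcripts, 3 of them also with the Csprs mRNA, and a pair of them share 35 bases, in capitals. Their signals went from 12.47 to 14.39 and from 12.92 to 15.31 for the pair, differences of 1.92 and 2.38, and the remaining ones had differences of 2.64 and 1.88.
BC038927 (chromosome 1): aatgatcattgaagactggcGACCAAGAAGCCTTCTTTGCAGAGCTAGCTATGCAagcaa
BC038927 (contig): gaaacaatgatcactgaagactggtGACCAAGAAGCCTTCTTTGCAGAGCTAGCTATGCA

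Higher probes that lay beside each other were gathered, taking at least 3 named probes that were 2-fold higher with gaps of at most 100 kb. This gave 18 runs, whose intervals hold 68 named probes, of which 64 were detected on both arrays and past 2-fold. The direction is fixed by this rule, and what is described is position. Some runs hold probes that share sequence and are not separate measurements. The one at chr9:81631930-81645156 is the 3 D430036J16Rik probes alone. The one at chr4:155761192-155763560 is both Atad3aos probes and 2610204G22Rik, which shares 41 bases with a probe of Atad3aos. The longest run, of 8 probes, lay at chr1:84965293-85277814, followed at chr1:85551311-85610224 by 4 probes around Sp110, a nuclear body protein raised by interferon. Besides the BC038927 and AB346 probes it holds Gm16028, antisense, with 11.68 at 0 h and 13.03 at 72 h, and Gm16026, with 6.27 and 9.16.

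A run of 5 at chr7:105824223-105928691 held 9130208D14Rik, AK033576, Gm15645, AK046587 and Gm17757. The last had signals of 12.71, 11.79, 15.06 and 8.82, and AK046587 8.09, 8.60, 10.35 and 4.95. All 5 had less signal at 96 h than at 0 h. A run of 5 at chr19:11482620-11593373, in the Ms4a gene cluster, held Ms4a6b, Ms4a6d, AK143011, AK080134 and AK159665, with AK143011 going from 6.77 to 9.20. Another run on chromosome 19 joined Slc3a2, Snhg1 and BC094633 at chr19:8709715-8756925, with differences of 1.82, 1.05 and 1.99, and one on chromosome 1 joined Atf3 with AK021325 and AK134771, at 2.44, 1.19 and 1.61.

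**Figure D5:**
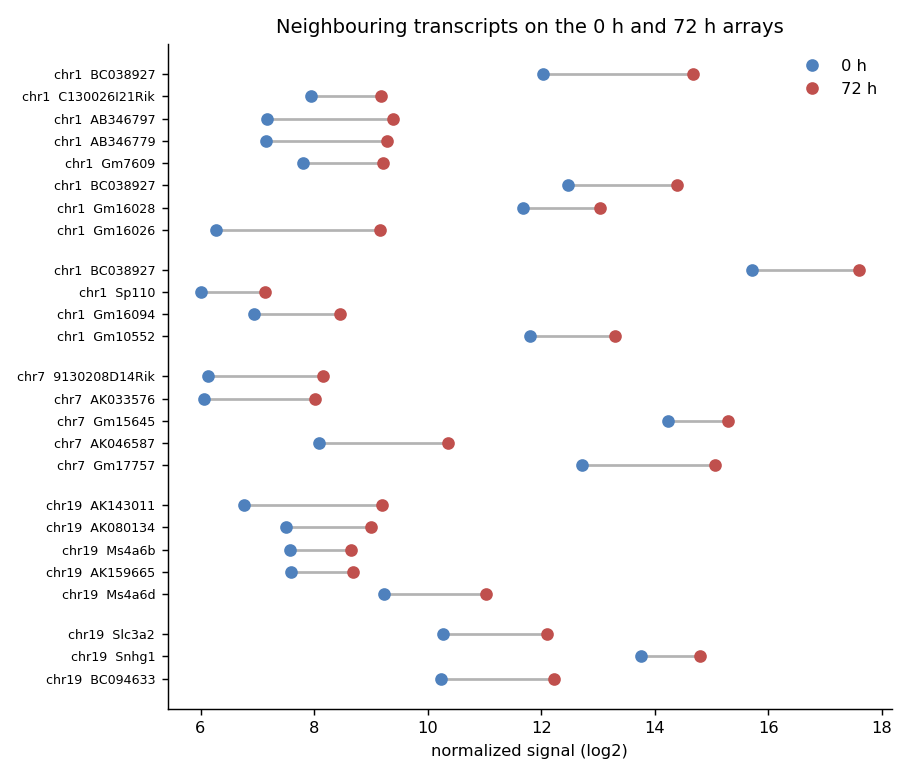
Normalized signal (log2) at 0 h (blue) and 72 h (red) of the named probes in 5 runs of neighbouring transcripts on chromosomes 1, 7 and 19, in order along each chromosome. Each probe is higher at 72 h, as the choice of runs requires, from 1.05 for Snhg1 to 2.89 for Gm16026.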

How the data were processed

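RNA of RAW264.7 cells was labelled and hybridised to 4 one-colour arrays, 1 per time. The authors deposited spot files of Agilent Feature Extraction (11.0.1.1 per the file headers) with intensity values (processed signal, median signal and median local background) and flags. A second deposited file, a value table, holds log2 signals that the authors quantile normalized in GeneSpring. Quantile normalization of the log2 processed signals gave the table's values within 0.0312, so it is on that log2 scale, without centring of genes. The labels describe a T7 promoter primer, and the methods random priming after removal of rRNA.

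The difference was taken in that table between the 72 h and 0 h columns for probes well above background on both arrays, and 2-fold was the limit. Each lower bound sets the brighter array against the higher of the dim value and the lowest value well above background there, 4.81 at 0 h and 5.15 at 72 h. The bounds hold for the deposited values only and were not recomputed under other scalings. Names came from supplementary lists by probe name, and the authors' fold columns in them were not used. Of 1596 symbols with a RefSeq gene on the same chromosome, 1579 overlapped it in GRCm38.p6, the build used, though the file headers name another. Transcript starts were raised by 1 to count from 1.

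The text names the 12 highest and 12 lowest named probes, the 3 highest and 3 lowest of each class, and those of 9 gene lists. It gives the values of a part of these, and some items are not reported here. The members, lists and rules were chosen with earlier results of these data known. Precision is limited by the number of arrays and by signal over background, since no array was repeated and no test was made. Counting was tested on simulated data. The alternatives were 5 other scalings, normexp with an offset of 50, filters on dim probes, limits of 1.5-fold and 4-fold, probes without cross-hybridisation, the median of a gene's probes and probes of 1 class. Python 3.11.15, numpy 2.4.6, pandas 2.3.3 and limma 3.58.1 in R 4.3.3 were used.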

Additional observations from a re-analysis of the deposited data

Results flagged for a closer look

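CUST_12_PI419532418, a probe printed 20 times that is not in the deposited table and has no name here, had a signal on the 72 h array above that on the 0 h array by 1.38 on the log2 scale before normalization, with 8.89 ± 0.111 at 0 h and 10.3 ± 0.142 at 72 h (SD over 20 spots). It was the one of 15 such probes past 2-fold after the median difference of the arrays was taken off. The cause was not tested.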

How the results depend on the processing

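No paired analysis was possible because each time has 1 array, and for the same reason no array could be left out. Quantile normalization from the spots gave the main counts. Under quantile normalization of the 0 h and 72 h arrays alone, both scalings and cyclic loess, the counts of all and of named probes past 2-fold in each direction stayed within 1.5 times the main ones. Normexp, run on the median signal, which the spot files hold in place of the planned mean signal, left 663 higher and 800 lower, and 347 and 25 among named probes. With probes of at least median mean signal, 600 were higher and 628 lower, and 287 and 17 among named ones, as fewer were counted. With no filter the counts were 4202 and 4972, and 1608 and 229 among named probes, which counts probes not above background. At 1.5-fold there were 4312 and 4118, and at 4-fold 162 and 204. Chosen after seeing the data, leaving out outlier-marked spots gave 1322 and 1612. Also chosen then, leaving out probes that the study listed as higher at 72 h leaves 1 or 2 probes in most lists. The medians became -0.11 for inflammatory genes, -1.10 for iron-handling genes, -1.17 for leukocyte signalling genes and -0.47 for named lncRNA genes, all turned in sign, and 0.57 for the stress response and 0.45 for interferon-response genes. No passing osteoclast probe is in that list, and leaving out the probes listed as lower at 72 h too turned the osteoclast median from -1.76 to 0.05, over 3 probes. Of 114 named probes past 2-fold, 80 stayed so under every scaling, and 39 shrank by over 1.5 times under at least 1. Of 768 values recomputed, 166 moved by more than the spread between spots of the repeated, mostly bright probes, 78 of them under normexp. None of the values of probes past 2-fold turned in sign. The small differences of Atp6v0a4 (0.05), Cbs (0.14) and Il1rap (0.22) did, with lowest values of -0.09, -0.13 and -0.02. Probes that did not stay past 2-fold include Slc7a5 and Herpud1 (lowest 0.72 and 0.96), Map3k8 (0.99), Tug1 (0.69), Vim (-0.86) and Ftl1 (-0.85). What limits the weak probes is signal over background, with 21249 probes above it on neither array.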
